A study of Mus musculus with 12 samples.

Results

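The genes described here are 9 markers of adult hippocampal neurogenesis and of dividing cells: Dcx, Sox11, Sox4, Eomes, Neurod1, Igfbpl1, Draxin, Mki67 and Top2a. They were taken by gene symbol from the authors' tables of 17564 genes, and 8 of the 9 were found, since Eomes is not listed in either table. The tables give the effect of chronic corticosterone (CORT), a glucocorticoid that mice release under stress, on the ventral hippocampus. The mice were males of C57BL/6 background, and the question was how far CORT changed these genes in each genotype. WT mice and BDNF het-Met mice, which carry 1 copy of the Met allele of the BDNF Val66Met variant and 1 wild-type copy, were compared. CORT at 25 mg/l in 1% ethanol was taken by mouth for 6 weeks from 2 months of age, and vehicle (VEH) was 1% ethanol. There were 4 groups of 3 libraries (each genotype under each treatment), each library made from the RNA of 2 pooled animals.

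New neurons arise in the adult mouse brain in the subgranular zone of the dentate gyrus. Radial glia-like stem cells give rise to dividing intermediate progenitors, which express Eomes, and these to neuroblasts and immature neurons, which pass through a stage of Dcx expression and mature into granule neurons. Chronic glucocorticoids are known to slow the division of progenitors in this lineage. Dividing cells of any kind express Mki67 and Top2a, and in adult hippocampus oligodendrocyte precursors, microglia and endothelial cells can divide too.

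Per the annotation of genome build GRCm38, all 9 genes are protein coding. The dividing cell genes are Mki67 (chr7:135689784-135716361), whose product Ki-67 coats mitotic chromosomes, and Top2a (chr11:98992943-99024189), the topoisomerase that untangles DNA before chromosomes separate. Genes of the early neuronal lineage are Eomes (chr9:118478212-118486132), a T-box factor of intermediate progenitors, and Neurod1 (chr2:79452521-79456751), a basic helix-loop-helix factor needed by newborn granule neurons. Sox11 (chr12:27334264-27342574) and Sox4 (chr13:28948919-28953713) encode related high-mobility-group factors of newly committed neurons. Dcx (chrX:143855842-143933311) encodes doublecortin, a microtubule-binding protein of migrating neurons. Draxin (chr4:148098437-148130698) encodes a secreted axon guidance protein, and Igfbpl1 (chr4:45809468-45826923) a protein related to insulin-like growth factor binding proteins. Eomes lies on the plus strand and the other genes on the minus strand.

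Top2a and Mki67 had the largest CORT effects of the set in BDNF het-Met mice and in the mean of both genotypes, and the sequence upstream of each is shown here because genes of late cell cycle often share short motifs there. A CCAAT box is bound by the factor NF-Y, and the cell cycle genes homology region (CHR) by complexes that restrict such genes to late cell cycle. The CHR was searched as TTTGAA. A variant of it, called the CHR variant here, reads TTCGAA. The 250 bases before the annotated start are given 5′ to 3′ on the minus strand, from RefSeq on GRCm38.p6, at chr11:99024190-99024439 for Top2a and chr7:135716380-135716629 for Mki67. Capitals mark every match of the CCAAT box, the CHR or the CHR variant on either strand, and no match overlaps another.
Top2a: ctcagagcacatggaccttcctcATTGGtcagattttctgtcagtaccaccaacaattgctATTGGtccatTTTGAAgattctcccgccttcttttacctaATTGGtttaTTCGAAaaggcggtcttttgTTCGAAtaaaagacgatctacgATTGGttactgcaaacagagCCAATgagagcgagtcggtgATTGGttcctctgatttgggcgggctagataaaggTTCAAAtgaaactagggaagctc
Mki67: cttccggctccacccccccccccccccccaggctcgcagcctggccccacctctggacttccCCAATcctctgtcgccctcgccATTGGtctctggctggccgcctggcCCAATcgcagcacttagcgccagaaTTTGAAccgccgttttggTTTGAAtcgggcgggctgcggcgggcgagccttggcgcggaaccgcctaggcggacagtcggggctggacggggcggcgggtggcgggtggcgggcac

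The Top2a window held 6 CCAAT boxes, 2 CHR matches and 2 of the CHR variant. The Mki67 window held 3 CCAAT boxes and 2 CHR matches. Of 32851 windows of the same length in the reference, 33.8% held at least 1 CCAAT box, 2.79% held 3 or more and 0.0578% held 6 or more. A CHR was in 16.0% of them and the CHR variant in 1.34%. Among the 8 members with a window, which leaves out Igfbpl1, 6 held a CCAAT box, with 4 in Sox4, 2 in Eomes and 1 each in Sox11 and Dcx. A CHR or its variant was found in 3 of the 8, namely Top2a, Mki67 and Sox11. The letters GGCGGGAA, a binding motif of E2F factors, were in none of the 8 windows and in 1.86% of all windows. A match of letters is a description of the sequence and not of a bound site.

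The level of each gene was taken per kilobase of exon, as log2 CPM minus the log2 of exon length, so that levels can be set between genes. Neurod1 stood highest at 2.89 and was above 66.0% of all genes. Sox11 (1.07), Dcx (0.90) and Sox4 (0.49) followed, and Igfbpl1 (-1.41), Mki67 (-2.03), Draxin (-2.07) and Top2a (-2.86) were lowest. Top2a was above only 2.15% of genes and Mki67 above 6.07%. The tables give these levels as means over all libraries with no error, so neighbours in this order cannot be told apart by a test.

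Weakly expressed members were measured with less precision. On the scale of mean log2 CPM, Dcx was at 4.57, Neurod1 at 4.33 and Sox11 at 4.12, Sox4 at 2.75, Mki67 above only 23.0% of genes, and Top2a (0.32), Draxin (0.31) and Igfbpl1 (0.29) near the bottom. The CORT effect in BDNF het-Met mice, a log2 fold change, had a standard error of 0.08 for Dcx and 0.09 for Neurod1. In Top2a it was 0.33 and for Igfbpl1 0.44, which was above the standard error of 97.8% of all genes. The smallest fold change that could reach the p threshold of 0.05 in BDNF het-Met mice was 1.13 for Dcx, 1.41 for Mki67, 1.56 for Draxin, 1.65 for Top2a and 1.95 for Igfbpl1. A change of Igfbpl1 below that size was not detectable here.

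**Figure D1:**
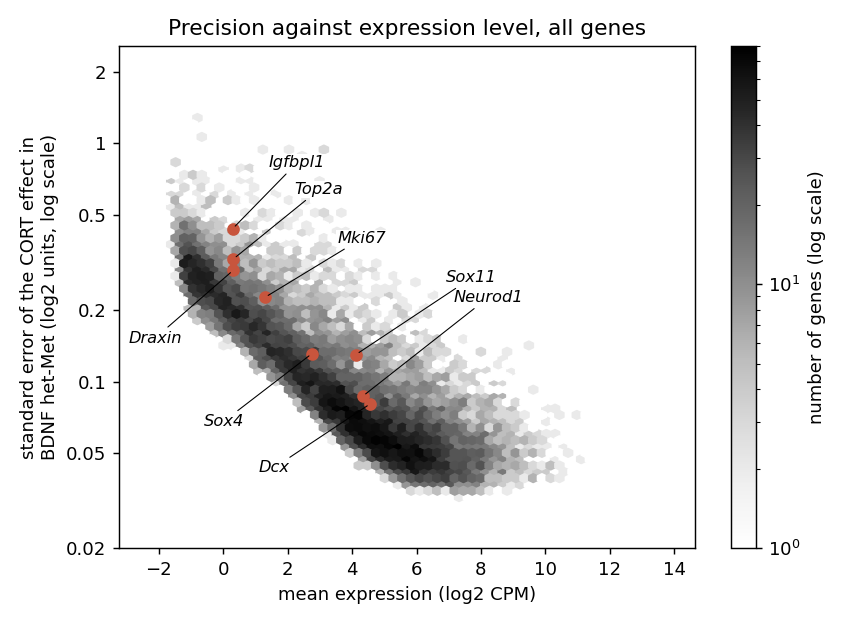
Standard error of the log2 fold change under CORT in BDNF het-Met mice (vertical, log scale) against mean expression in log2 CPM (horizontal). Grey hexagons count all genes and red points are the 8 listed members, which run from Dcx at a standard error of 0.08 to Igfbpl1 at 0.44.

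Fold changes below are log2 values of CORT minus VEH with the model's standard error, so a negative value is lower under CORT. No values per library were analysed here, so whether single libraries of the groups overlap cannot be given. The direction follows the names of the comparisons, and Fkbp5, a gene that glucocorticoids induce, was higher under CORT at 0.21 ± 0.09 in WT mice and 0.43 ± 0.08 in the BDNF het-Met mice, with p below 0.05 before correction in both. The other fixed glucocorticoid targets gave no such rise. Tsc22d3, which they also induce, was lower in WT mice at -0.26 ± 0.11 with p below 0.05 before correction, so WT mice gave 1 call each way. It was at -0.07 ± 0.10 in the BDNF het-Met mice, and Sgk1 at -0.11 ± 0.15 and -0.02 ± 0.13. A differentially expressed gene (DEG) had, by the rule of the study, p below 0.05 before correction and a fold change above 1.3. After correction over all genes no gene of either comparison passed an adjusted p of 0.05, and the lowest value reached was 0.143 in BDNF het-Met mice. All WT values of adjusted p were 0.999 or above, so this value is not repeated below. The tissue was read from 9 hippocampal genes, all listed, with a median of 6.30 log2 CPM.

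In BDNF het-Met mice the dividing cell genes Top2a and Mki67 and the neuronal factor Sox4 were DEGs and lower under CORT, and no member was a DEG in the other direction. That is 3 of 8 listed members lower, where 2.52% of all genes were DEGs and lower and 0.723% DEGs and higher. Since weakly expressed genes gave more such calls, the same share was taken among the 7026 genes in the lowest 2 of 5 expression classes of equal size, and there it was 4.94%, with 3 of the 5 members that lie there called. In WT mice 0 of 8 members were DEGs by limma, and 0 had an uncorrected p below 0.05, where 0.672% of all genes were DEGs and lower and 0.581% DEGs and higher. Centred on the median of each expression class, the DEGs of all genes were 93 lower and 131 higher in WT mice (118 and 102 as deposited), and 340 lower and 195 higher in the other genotype (442 and 127). The median effect of the 8 members was -0.15 in WT mice and -0.27 in the BDNF het-Met mice, and the medians of all genes were -0.0026 and -0.0061. In bulk tissue, fewer cells of a type and less RNA per cell cannot be told apart.

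Top2a was lower under CORT in BDNF het-Met mice by a log2 fold change of -1.13 ± 0.33, which is 0.457 of the VEH level (95% interval 0.277 to 0.753, adjusted p = 0.264). It ranked 350th by p of 17564 genes. In WT mice Top2a was at -0.73 ± 0.35, or 0.601 of the VEH level with an interval of 0.351 to 1.03 that holds 1. The effects of the genotypes (BDNF het-Met minus WT) differed by -0.40 ± 0.48, a difference that was not significant, with a 95% interval of -1.45 to 0.66.

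Mki67 gave -0.71 ± 0.23 in BDNF het-Met mice, or 0.610 of the VEH level (95% interval 0.432 to 0.861, adjusted p = 0.275). WT mice gave -0.25 ± 0.24 and 0.841 of the VEH level, with an interval of 0.581 to 1.22. This difference between genotypes, -0.46 ± 0.33, was not significant either, and its interval ran from -1.19 to 0.27. Mki67 and Top2a therefore had the same sign in both genotypes, with wide intervals in each. Mki67 shares a stretch of 216 bases at 98.6% identity with Gm44521, and Top2a holds the small nucleolar RNA gene Gm23451 (122 bases, 1.35% of its exons). Top2a also matches Gm22303 and Gm25188 at 98.3% identity and Gm22358 at 99.2%, each over 119 bases. Reads in such stretches could be split between genes.

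Sox4 was lower in BDNF het-Met mice at -0.40 ± 0.13 (adjusted p = 0.277), which is 0.757 of the VEH level and lies close to the fold minimum of the DEG rule. Centred on the median of its expression class it was at -0.36, under that minimum, and was no longer a DEG. The WT value was -0.13 ± 0.14, and the difference between genotypes was -0.28 ± 0.19 with an interval of -0.70 to 0.15. Its relative Sox11, with a similar precision, gave -0.04 ± 0.15 in WT mice and -0.08 ± 0.13 in the BDNF het-Met mice (adjusted p = 0.833). The 95% interval of the Sox11 effect in BDNF het-Met mice ran from 0.776 to 1.15 of the VEH level. Exons of Sox4 share 2616 bases, 54.6% of their length, with Gm26735, a long noncoding RNA gene on the opposite strand. Gm26735 is not listed in the tables, and whether reads were counted by strand is not given in the sources used here.

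Dcx, the most used marker of immature neurons, was at -0.18 ± 0.08 in BDNF het-Met mice (adjusted p = 0.377), or 0.883 of the VEH level. Its uncorrected p lay just below 0.05, but the change was under the fold minimum. The WT value was similar at -0.12 ± 0.09. Dcx was measured with the best precision of the 8 members, and its 95% interval reached down to 0.781 of the VEH level in BDNF het-Met mice and to 0.803 in WT.

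Neurod1 went the other way. It was at 0.25 ± 0.09 in BDNF het-Met mice (adjusted p = 0.289), or 1.19 times the VEH level, again under the fold minimum, and at 0.11 ± 0.10 in WT mice. Without the fold minimum 13.2% of all genes had p below 0.05 in BDNF het-Met mice, and 5 of the 8 members did. Mature hippocampal neurons also express Neurod1, so it marks newborn neurons less exclusively than Dcx does. Of its exon bases 7.37% are shared with Cerkl on the same strand, which had a mean of 1.24 log2 CPM.

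Igfbpl1 and Draxin, the weakest neuronal members, had wide intervals. Igfbpl1 gave -0.32 ± 0.50 in WT mice and -0.05 ± 0.44 in the BDNF het-Met mice (adjusted p = 0.975), where its interval ran from 0.495 to 1.89 of the VEH level. Draxin gave -0.17 ± 0.32 and -0.37 ± 0.29 (adjusted p = 0.629), with an interval of 0.495 to 1.21. Neither gene's value shows a change or its absence at this precision.

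**Figure D2:**
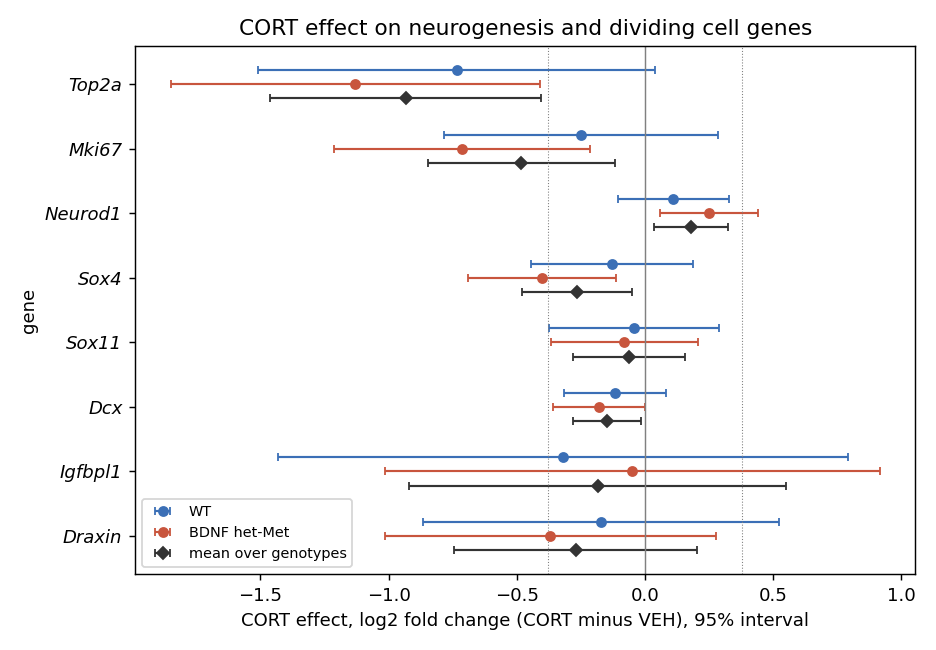
CORT effect on each listed member as a log2 fold change (horizontal), with 95% intervals, in WT (blue), in BDNF het-Met mice (red) and as the mean of both (black diamonds). Dotted lines mark a fold change of 1.3, and the intervals of Top2a, Mki67, Sox4, Dcx and Neurod1 exclude 0 in BDNF het-Met mice and in the mean, whereas all WT intervals hold 0.

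The genotypes share no group of libraries, so both effects were averaged per gene to gain precision. The mean effect was lower for Top2a (-0.93 ± 0.24), Mki67 (-0.48 ± 0.17), Sox4 (-0.26 ± 0.10) and Dcx (-0.15 ± 0.06), and higher for Neurod1 (0.18 ± 0.07), each with p below 0.05 before correction. Top2a ranked 223rd of all genes by this p. Thus 4 of 8 members were lower at p below 0.05, where 6.18% of all genes were, and 1 was higher, where 7.17% were. In the lowest 2 expression classes 3 of 5 members were lower, against 6.8% of genes there. Adjusted over all genes, 0.074% of genes passed (13 genes), and the members did not, with adjusted p = 0.203 for Top2a, 0.271 for Mki67, 0.289 for Neurod1, 0.297 for Sox4 and 0.333 for Dcx. Sox11 (-0.06 ± 0.10), Draxin (-0.27 ± 0.22) and Igfbpl1 (-0.18 ± 0.33) did not reach p below 0.05. Dcx missed it with the ordinary standard error and when centred on its expression class.

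The effect of CORT did not differ between genotypes at p below 0.05 for any of the 8 members, where 2.41% of all genes did. The differences not yet given were -0.06 ± 0.12 for Dcx, -0.04 ± 0.20 for Sox11, 0.14 ± 0.13 for Neurod1, 0.27 ± 0.67 for Igfbpl1 and -0.20 ± 0.43 for Draxin. The DEG calls in BDNF het-Met mice are therefore not shown to be absent in WT mice. The standard error was smaller in BDNF het-Met than in WT mice, with a median ratio of WT to BDNF het-Met of 1.12. Equal libraries, 5 in WT against 6 in BDNF het-Met mice, would give 1.12, and the tables list 7 residual degrees of freedom where 12 libraries in 4 groups leave 8. Whether a library was left out or a further term entered the fit is not given in the sources used here.

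Top2a and Mki67 were next set beside genes of the cell cycle. Of 25 genes of mitosis 21 were listed, and Ccnb1, Aurkb, Bub1 and Ube2c were not. In the mean of both genotypes 7 of the 21 fell and 0 rose at p below 0.05, and the median effect was -0.37, where 6.18% of all genes were lower and 7.17% higher. By the DEG rule 3 were lower in WT, where the median was -0.23, and 6 in BDNF het-Met mice, where it was -0.30, against 0.672% and 2.52% of all genes. In the lowest 2 expression classes, where 19 of the 21 lie, 4.94% of all genes were lower DEGs in BDNF het-Met mice and 6.8% were lower in the mean. In WT mice 104 of the 7026 genes there were lower DEGs. Centred on the expression class, 3 were lower in BDNF het-Met mice. Cenpf, a kinetochore protein, was a DEG in both genotypes at -0.65 ± 0.16 in WT mice and -0.47 ± 0.14 in the BDNF het-Met mice. Bub1b, of the spindle checkpoint, was a DEG in WT at -0.79 ± 0.21 and gave -0.47 ± 0.22 in BDNF het-Met mice, where it was not. Racgap1, which acts in cytokinesis, was a DEG in BDNF het-Met mice at -0.50 ± 0.17 and gave -0.37 ± 0.20 in WT, where it was not. Only 1 of 21 mitosis genes had an effect above 0 in WT mice and 2 in the BDNF het-Met mice, as against 8591 and 8469 of all 17564 genes. Among the genes of the lowest 2 expression classes it was 3167 and 2883 of 7026.

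Of 15 genes of DNA replication 14 were listed, all but Chaf1b, and 0 passed in the mean effect or by the DEG rule in either genotype. Their median was -0.08 in WT, 0.01 in BDNF het-Met mice and -0.05 in the mean. The smallest p belonged to Mcm3, of the replicative helicase (mean effect -0.32 ± 0.15), Pola1, of the priming polymerase (0.14 ± 0.07), and Uhrf1, which keeps DNA methylation through replication (-0.40 ± 0.20). In WT mice these genes ran from -0.42 to 0.22, with the Mki67 effect of -0.25 inside that range and the Top2a effect of -0.73 below it. In BDNF het-Met mice they ran from -0.53 to 0.23, and Mki67 (-0.71) and Top2a (-1.13) lay below. A difference between the mitosis and replication lists was not tested. Many replication genes are also expressed outside S phase, and their median level of 1.82 log2 CPM was above the 0.74 of the mitosis genes. In the windows upstream, 18 of 21 mitosis genes and 10 of 13 replication genes with a window held a CCAAT box, and 8 of 21 and 3 of 13 held a CHR or its variant.

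**Figure D3:**
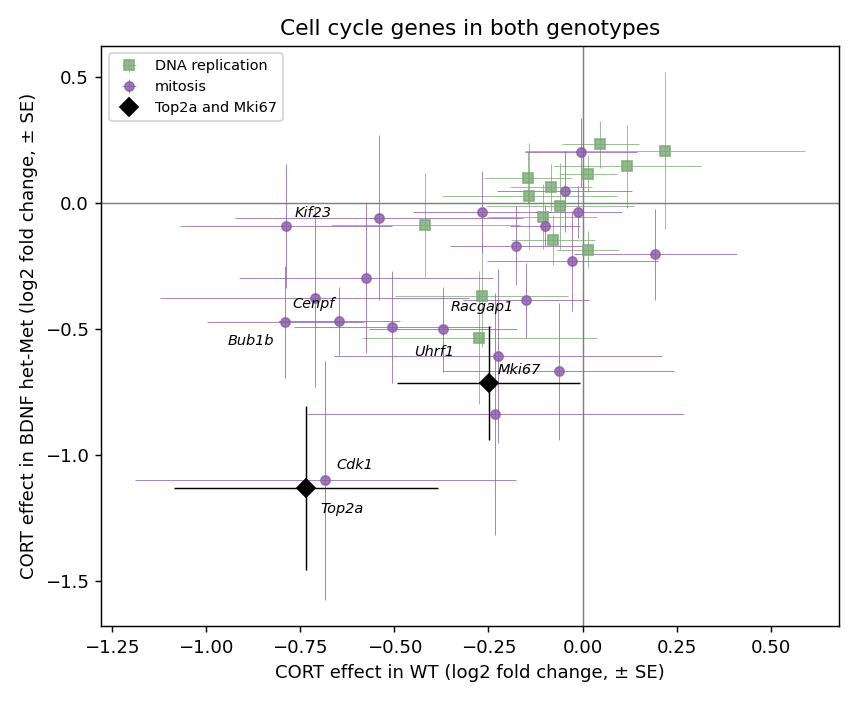
CORT log2 fold change in BDNF het-Met mice (vertical) against that in WT mice (horizontal), with standard errors, for 14 DNA replication genes (green squares), 21 mitosis genes (purple circles) and Top2a and Mki67 (black diamonds). Most mitosis genes lie below 0 on both axes, and the replication genes lie around 0.

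Along the lineage, genes of neural stem cells were read next. Of the 12 listed genes (Tfap2c was not), 6 fell and 0 rose in the mean of both genotypes, with a median of -0.16. Of all genes 6.18% fell and 7.17% rose in the mean. Fabp7, a fatty acid binding protein of radial glia that astrocytes also make, was lowest at -0.59 ± 0.17 in WT mice and -1.04 ± 0.15 in the BDNF het-Met mice. Its mean effect of -0.82 ± 0.12 passed the correction over all genes (adjusted p = 0.0431), a call that is lost with the ordinary standard error, by which 0 genes pass. Hopx, a marker of quiescent stem cells also found in astrocytes, was at -0.30 ± 0.08 and -0.34 ± 0.07, and its mean effect gave an adjusted p of 0.0618. Lpar1, a lysophosphatidic acid receptor that oligodendrocytes also express, was at -0.29 ± 0.15 and -0.45 ± 0.14.

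Genes of neuronal progenitors gave no common direction. Of the 8 listed (Neurod4 was not) 1 rose and 0 fell in the mean, where 7.17% of all genes rose and 6.18% fell. The median of the list was 0.03, and none of the 8 was a DEG in either genotype. The one that rose was Insm1, a factor of delaminating progenitors, at 0.01 ± 0.11 in WT mice and 0.30 ± 0.10 in the BDNF het-Met mice. Neurog2, which precedes Neurod1 in the lineage, was at 0.64 ± 0.32 and 0.31 ± 0.30, and Tead2, of the Hippo pathway, at -0.30 ± 0.22 and -0.31 ± 0.19. Neither passed in either genotype.

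Among 17 genes of immature neurons, all listed, 1 fell and 0 rose in the mean, and the median was -0.02. This was Marcksl1, an actin-regulating protein, at -0.03 ± 0.12 in WT mice and -0.39 ± 0.11 in the BDNF het-Met mice, where it was a DEG. Stmn1, a microtubule-destabilizing protein, was a DEG in BDNF het-Met mice (-0.46 ± 0.21) and gave -0.23 ± 0.24 in WT. St8sia2, which adds polysialic acid to NCAM, was at -0.14 ± 0.17 and -0.36 ± 0.15. Several of these genes stay on in mature neurons, and the list's median level was 6.32 log2 CPM, so its values are not those of newborn neurons alone. Of 7 genes of mature granule neurons, 1 rose and 0 fell in the mean, with a median of 0.17. Effects were above 0 for all 7 in the mean and in BDNF het-Met mice, and for 6 in WT. In the mean 8394 of all 17564 genes were above 0, and 7.17% passed as higher. The gene that rose was the calcium-binding protein Calb1 (0.28 ± 0.11 in WT, 0.19 ± 0.09 in BDNF het-Met mice). Dsp (0.23 ± 0.15) and Prox1 (0.17 ± 0.11) did not pass in the mean.

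Markers of other cell types that divide or share member genes moved in these libraries as well. Of 10 genes of oligodendrocyte precursors 6 fell and 1 rose in the mean, with a median of -0.20, where 6.18% of all genes were lower and 7.17% higher. The falls included Enpp6 (-0.80 ± 0.28 in WT, -1.23 ± 0.26 in BDNF het-Met mice), Gpr17 (-0.35 ± 0.15 and -0.53 ± 0.13) and C1ql1 (-0.26 ± 0.11 and -0.36 ± 0.09). All 4 genes of committed precursors (Enpp6, Gpr17, Neu4 and Bmp4) fell in the mean, with a median of -0.62, and this stage is known to express Sox4 and Sox11. Effects were above 0 for only 2 of the 10 genes in BDNF het-Met mice and in the mean, and for 3 in WT. Those 2 were Pdgfra, at 0.09 ± 0.07 in WT mice and 0.05 ± 0.07 in the BDNF het-Met mice, and Cspg4. Cspg4 was at 0.12 ± 0.05 and 0.05 ± 0.05. The other 8, committed precursor genes among them, were below 0 in BDNF het-Met mice and in the mean. All 8 microglial genes had effects below 0 in both genotypes (median -0.22 in WT, -0.43 in BDNF het-Met mice), and 6 fell in the mean, against the same 6.18%. Those of smallest p were P2ry12 (-0.44 ± 0.14), Tmem119 (-0.35 ± 0.11) and Cx3cr1 (-0.27 ± 0.09). The part of these cell types in the values of Top2a, Mki67 and Sox4 was not tested.

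Markers of the remaining cell types gave fewer calls, where 6.18% of all genes were lower and 7.17% higher in the mean. Of 7 endothelial genes 1 fell in the mean, Tek (-0.22 ± 0.09), and Cldn5 (0.23 ± 0.11) and Flt1 (0.10 ± 0.05) did not pass. Interneuron neuroblast genes, which would come from the lateral ventricle wall, gave 0 calls of 7 in the mean, with Dlx5 at 0.25 ± 0.14 and Dlx6 at -0.17 ± 0.09. Dlx5 was a DEG and higher in WT mice (0.51 ± 0.21), and Sp8, named after its values were seen, differed between genotypes at p below 0.05. Ependymal genes gave 0 calls of 5, with mean effects of 0.12 ± 0.31 for Foxj1, -0.09 ± 0.25 for Ccdc153 and -0.11 ± 0.29 for Dynlrb2. All 5 were above 0 in WT mice (median 0.16) and below 0 in BDNF het-Met mice (median -0.26), and 0 differed at p below 0.05. Choroid plexus genes, 7 in all, ran from -2.05 to -0.40 in WT with standard errors of about their own size, as in Ttr (-1.91 ± 2.32), Aqp1 (-2.05 ± 2.00) and Folr1 (-1.57 ± 1.62). In BDNF het-Met mice they ran from -0.37 to 0.46 with 5 of 7 above 0, and 0 passed in either genotype or in the difference. Of the 9 hippocampal genes 8 had mean effects above 0. At p below 0.05 only 1 rose in the mean, Zbtb20 (0.34 ± 0.13), while Grik4 (0.21 ± 0.11) and Prox1, given above, did not pass.

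**Figure D4:**
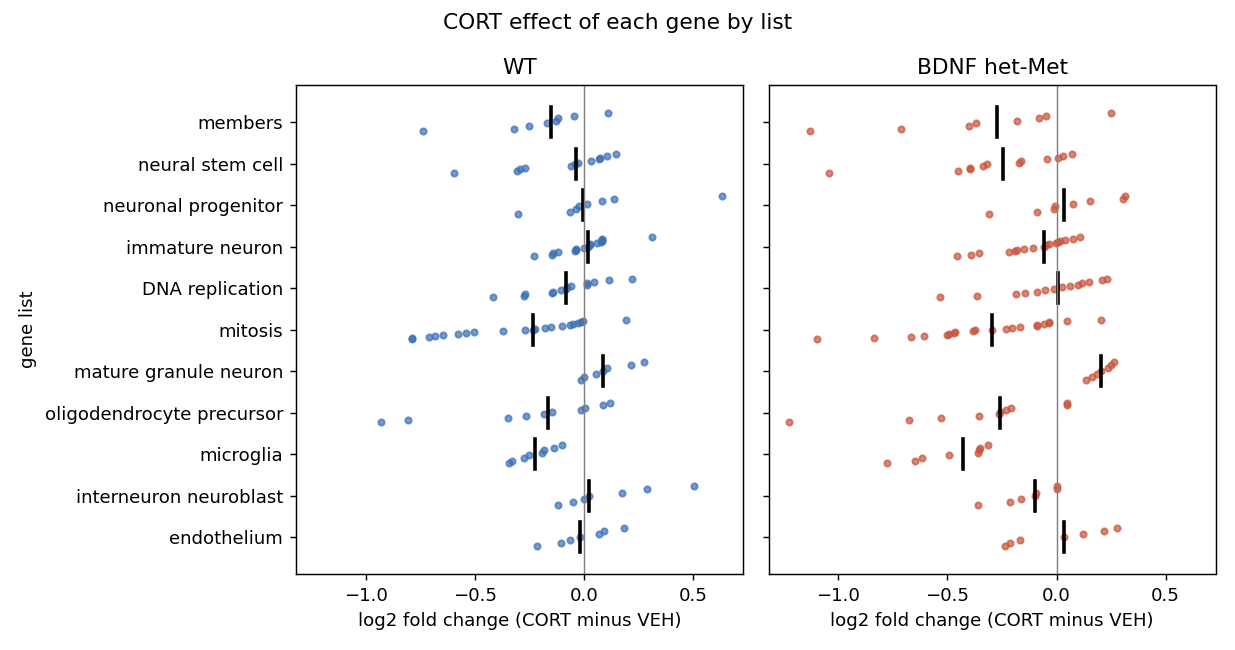
CORT log2 fold change (horizontal) of each gene, 1 point per gene, by list (vertical) in WT (left) and BDNF het-Met mice (right), with a black bar at each list's median. The 8 members have medians of -0.15 and -0.27, mitosis genes -0.23 and -0.30, and immature neuron genes 0.02 and -0.06.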

How the data were processed

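Per the labels, RNA was taken from 12 libraries, sequenced as 75-bp single-end reads on stranded libraries with 35 to 40 M reads planned each. The authors discarded reads with a quality score under 15, aligned with STAR to GRCm38, counted with featureCounts and fitted limma-voom. Tool versions, normalization factors and the depth reached are not given in the sources. Each of the 2 deposited tables, 1 per genotype, holds log2 values (mean log2 CPM, log2 fold change of VEH minus CORT and its standard error), p-values (uncorrected, adjusted and of a joint F) and scores (moderated t and F) that the authors computed. These are the authors' own comparisons, and they are used here because no value per library was analysed. The p-values measure the spread between libraries of pooled animals.

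The sign was turned to CORT minus VEH, and the standard error printed is the fold change over the moderated t. Mean and difference of both effects were tested with t at the listed 10.9 degrees of freedom, taking the comparisons as independent, with Benjamini-Hochberg adjustment over 17564 genes. Intervals are 95% intervals from the same t. Members and gene lists were chosen with earlier results of these data known. Named genes were all members and, in each list, the 3 of smallest p of the mean effect, of which 1 is not reported here. Coordinates and exons came from GENCODE M21 (17551 identifiers matched, 13 did not), and shared sequence from blastn 2.17.0. Python 3.11.15, numpy 2.4.6, pandas 2.3.3 and scipy 1.17.1 were used.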

Additional observations from a re-analysis of the deposited data

Results flagged for a closer look

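Of 133 genes in the lists beside the members, 4 differed in their CORT effect between genotypes (BDNF het-Met minus WT) with p below 0.05 in the test of the difference, where 2.41% of all genes did. These were Marcksl1 (-0.36), Sp8 (-0.65), Nr2e1 (-0.23) and Neurod6 (0.30), and none passed the correction over all genes. The last 3 were named after their values were seen.

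The joint F of the tables also spans the contrast between genotypes, for which no comparison was made here. The statistic left for it, which is F times 3 less the squares of both moderated t values, carries neither a sign nor a p. It had a median of 0.433 over all genes and a 99th percentile of 8.04. It was 34.8 for Bub1b and 21.6 for Pcna. Bub1b (chr2:118598211-118641591) lies 8.92 Mb and Pcna (chr2:132249162-132253314) 22.6 Mb from Bdnf on the same chromosome. Over the 8 listed members it ran from 0.0104 for Igfbpl1 to 1.57 for Sox4. It came out below 0 for 610 genes, at lowest -0.118, which exactly independent parts would not give.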

How the results depend on the processing

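Alternatives were the ordinary standard error, centring on the median of all genes or of the expression class, a mean expression above 0 log2 CPM, p below 0.01, no fold minimum and a fold above 1.5. Of 192 member values 180 kept direction and call, 9 lost a call, 2 gained it and 1 reversed. Most of these values had no call to lose. The main setting called 3 members in BDNF het-Met mice, and 4 lower and 1 higher in the mean. All 8 members lie above 0 log2 CPM, so that filter could not change a member value. Stricter p and fold cuts leave the fold change as it is and can only remove calls. The 180 are therefore no measure of how robust the calls are. Igfbpl1 in BDNF het-Met mice reversed to 0.0153 when centred by expression class. Sox4 in BDNF het-Met mice lost its DEG call when centred by expression class (-0.36), at p below 0.01 and at a fold above 1.5. Dcx lost its mean call with the ordinary standard error and when centred by expression class (-0.13). Without the fold minimum Dcx and Neurod1 gained calls in BDNF het-Met mice, so 1 member was called higher. At p below 0.01 the mean effect called 1 member lower (Top2a) and 0 higher. Mitosis genes called lower in BDNF het-Met mice were 6, and 3 when centred by expression class, 2 at a fold above 1.5 and 1 at p below 0.01.

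Over all genes, lower and higher calls in WT, 118 and 102, became 74 and 62 with mean expression above 0, 25 and 28 at p below 0.01, 276 and 396 without the fold minimum, and 72 and 51 at a fold above 1.5. In BDNF het-Met mice 442 and 127 became 166 and 43 at p below 0.01, 1166 and 1151 without the fold minimum, and 201 and 53 at a fold above 1.5. There the 127 higher calls became 195 when centred by expression class and 83 with mean expression above 0. At p below 0.01 the mean effect called 303 lower and 391 higher (1085 and 1259 at 0.05), and the difference 23 and 14. With the ordinary standard error the difference called 297 higher, and the 13 genes of the mean effect with an adjusted p below 0.05 became 0. The causes were not tested.

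No paired analysis was possible because no values per library were analysed, and leaving out each replicate was not run for the same reason. The tables list 1 residual degree of freedom fewer than 12 libraries in 4 groups leave. Errors of the mean and of the difference take both comparisons as independent. Against exact independence, the part of F left for the genotypes was below 0 for 610 genes, at lowest -0.118. A correlation of -0.02 or 0.02 in all genes would give a lowest value of -0.947 or -0.589.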
